A study of Rattus norvegicus with 5 samples.

Results

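The aggrecan and hyaluronan network was followed through 6 genes, Acan, Hapln1, Comp, Vcan, Has2 and Cd44, on arrays of rat mandibular condylar cartilage (MCC) and femoral condylar cartilage (FCC). Its members were taken as every probe set whose only gene symbol in the platform annotation is one of these names, which gave 14 of 31042 probe sets and 6 of 14217 named genes. Cells were captured by laser from sections of wild type 5-week-old male Sprague-Dawley rats. The MCC gave 4 of the 5 groups, from the surface down its fibrous zone (FZ), its proliferative zone (PZ), its mature zone (MZ) and its hypertrophic zone (HZ). The reference group was the chondrocytes of FCC, taken from the middle and deep layers. The labels name no treatment. The lysates of many sections went into 1 RNA sample, whose amplification took 2 rounds before it was put on 1 array per group. The labels do not say how many animals gave the sections, and no difference below has a replicate check, a test or a p-value. The only internal measure of error is the spread between probe sets of 1 gene, given as an SD. Those probe sets are read on the same arrays, so the SD does not cover differences between animals, RNA samples or amplifications.

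Cartilage resists compression because aggrecan, a core protein laden with sulfated chains, holds water within a collagen mesh. Aggrecan does not stand alone: its head binds the long sugar hyaluronan, and link protein (Hapln1) locks that bond, so that large aggregates form. Versican (Vcan) is a relative of aggrecan that is found in embryonic, fibrous and vascular matrix, Has2 makes hyaluronan at the cell surface, CD44 is its receptor there, and COMP is a pentameric glycoprotein that binds collagen fibrils.

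The deposited values are on a log2 scale, on which 0 is a probe set's own median array. They show where a gene was higher or lower, and hold no level that could be set against another gene. A difference of at least 2 on this scale, which is 4-fold, is counted as called, and a gene with several probe sets is given by their mean. Markers were checked against the group names. Of 15 hyaline chondrocyte genes 12 were highest in FCC and 11 were lowest in FZ, and of 9 genes of fibrous tissue 6 were highest in FZ. Of 8 hypertrophy genes 5 were highest in MZ and 2 in HZ, so they do not single out HZ. All 7 erythroid genes, 9 of 12 leukocyte genes and all 3 osteoclast genes were highest in HZ. Of 6 endothelial genes 5 were highest in MZ and 1 in HZ. The part of such cells in the low values of the members in HZ was not tested. Of 8 genes of cycling cells 1 was highest in PZ, so the name of the proliferative zone is not borne out by them, and 7 were lowest in FCC. In pooled material, fewer cells of a type and less RNA per cell cannot be told apart.

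The 6 genes showed a pair of patterns. Acan, Hapln1, Comp and Has2 were highest in FCC and lowest in HZ, as were 8.71% of all genes, though another scaling, given below, puts Acan highest in FZ. Vcan and Cd44 were highest in FZ and lowest in FCC, as were 6.22% of all genes. Of the 14 probe sets, 7 had the first arrangement and 6 the second, and 1 of Vcan was highest in FZ but lowest in PZ. These patterns rest on the scaling of the arrays. The 18 hybridization controls, spiked transcripts foreign to the rat, had a mean of 0.50 for FCC and 0.44 for PZ, against −0.15 for FZ, −0.02 for MZ and −0.03 for HZ. If the arrays are shifted until the controls have the same mean on each, the median over genes moves to 0.66 for FZ against FCC, 0.07 for PZ, 0.55 for MZ and 0.52 for HZ. Acan is then highest in FZ, while the highest and lowest arrays of the 5 other genes stay as given. Under that shift the first arrangement is shown by 1.40% of all genes and the second by 34.2%. The differences below are relative to a median of all genes near 0, and the median over the 6 genes against FCC was −0.64 in FZ, −0.97 in PZ, −1.31 in MZ and −2.16 for HZ. Under the shift these medians are 0.01, −0.91, −0.78 and −1.63.

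**Figure D1:**
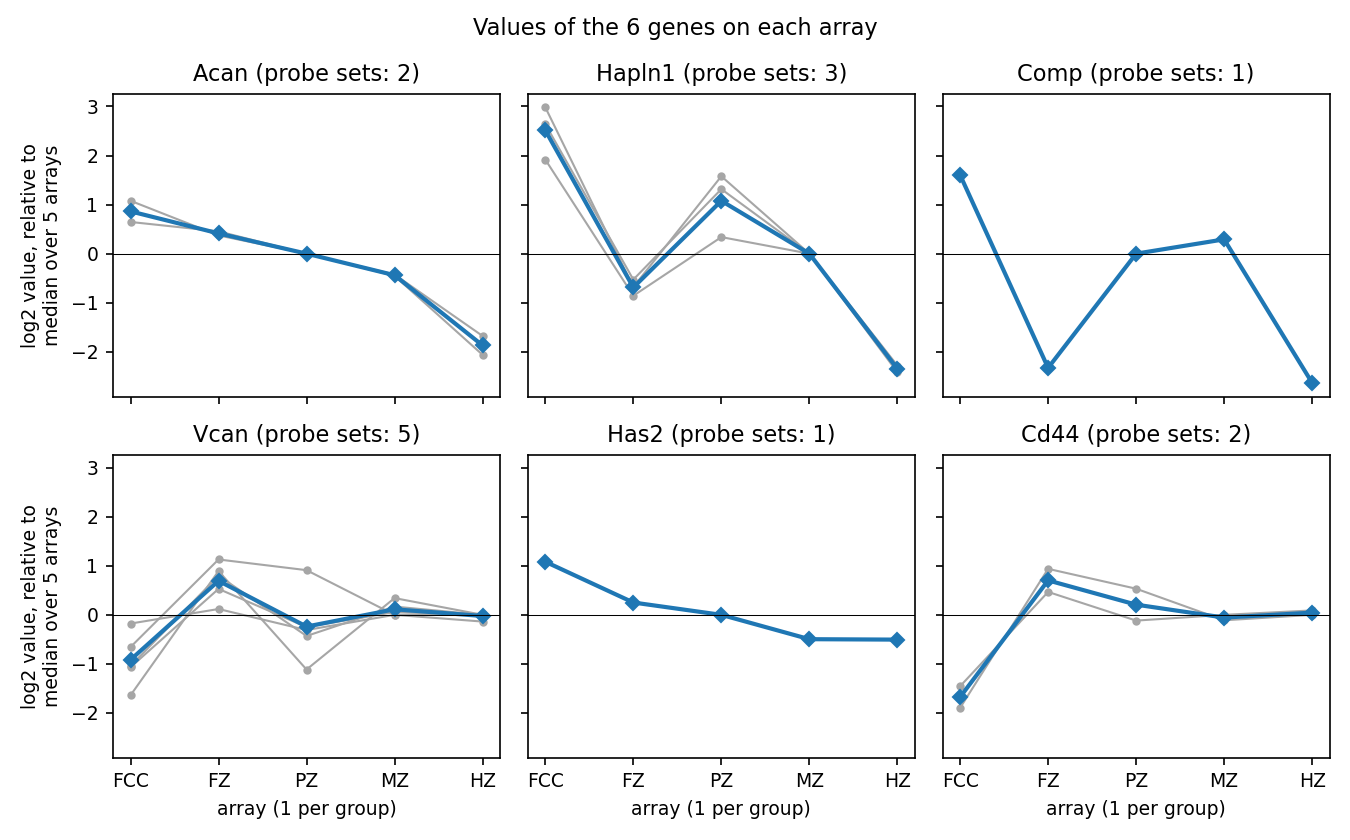
Log2 values of the 6 genes (vertical axis, where 0 is a probe set's own median array) on each array (horizontal axis, 1 per group). Grey lines are single probe sets and blue diamonds their mean. Acan, Hapln1, Comp and Has2 are highest in FCC and lowest in HZ, with Acan highest in FZ instead when arrays are shifted by hybridization controls, and Vcan and Cd44 are low in FCC, with means of −0.92 and −1.68.

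The sequences before the transcription starts of 4 of these genes are shown because Acan, Hapln1 and Comp were low together in HZ, whereas Vcan, the chromosomal neighbour of Hapln1, was not. They are the 250 bases before each start, 5′ to 3′ along the gene, from RefSeq on GRCr8: Acan at chr1:142390701-142390950, plus strand, Hapln1 at chr2:22366717-22366966, plus strand, Comp at chr16:19089549-19089798, minus strand, and Vcan at chr2:22595956-22596205, minus strand. Windows were found there for 5 of the 6 genes, the exception being Has2, and Vcan has 2, of which 1 is shown. Capitals mark matches, on either strand, to ACAAAG or ACAAT, cores bound by SOX factors, to the GC box GGGCGG or to the TATA box TATAAA. Overlapping matches run together.
Acan: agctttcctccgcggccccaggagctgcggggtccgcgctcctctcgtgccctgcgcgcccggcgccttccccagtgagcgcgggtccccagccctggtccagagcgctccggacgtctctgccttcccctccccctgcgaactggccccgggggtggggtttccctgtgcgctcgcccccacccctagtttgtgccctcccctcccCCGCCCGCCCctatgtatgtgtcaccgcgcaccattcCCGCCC
Hapln1: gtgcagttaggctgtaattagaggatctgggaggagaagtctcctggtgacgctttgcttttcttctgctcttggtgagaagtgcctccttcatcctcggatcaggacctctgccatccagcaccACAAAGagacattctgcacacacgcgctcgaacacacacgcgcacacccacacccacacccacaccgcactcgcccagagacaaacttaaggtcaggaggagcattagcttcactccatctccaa
Comp: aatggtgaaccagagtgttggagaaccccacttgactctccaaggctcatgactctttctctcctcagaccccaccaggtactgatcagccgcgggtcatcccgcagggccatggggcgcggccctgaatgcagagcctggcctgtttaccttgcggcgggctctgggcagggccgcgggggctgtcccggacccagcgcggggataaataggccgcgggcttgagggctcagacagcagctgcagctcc
Vcan: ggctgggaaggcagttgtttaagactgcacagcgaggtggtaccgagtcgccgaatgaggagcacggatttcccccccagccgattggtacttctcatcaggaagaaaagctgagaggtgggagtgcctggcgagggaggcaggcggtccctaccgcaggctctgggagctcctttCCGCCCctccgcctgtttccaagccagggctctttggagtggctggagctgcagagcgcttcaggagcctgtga
The window of Hapln1 holds 1 match to ACAAAG, which 16.3% of 33469 windows of this length hold. Acan holds 3 matches to the GC box and Vcan holds 1, and at least 1 is held by 30.5% of windows. None of the printed windows has a match to ACAAT or to TATAAA, which 30.02% and 12.9% of windows hold. The share of G and C was 73.6% for Acan, 54.0% for Hapln1, 64.8% for Comp and 61.6% for Vcan, with a median of 51.2% over all windows. These motifs were chosen with the values known, and a match describes letters and not a bound site.

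Acan, which encodes the aggrecan core protein, was graded from the reference to the deepest zone. Its 2 probe sets gave 1.08 and 0.65 in FCC, and 0.37 and 0.45 in FZ. Both were at 0.00 in PZ, with −0.43 and −0.45 in MZ and −1.68 and −2.06 in HZ. Both put the arrays in 1 order, FCC, FZ, PZ, MZ and HZ, and each step of their mean was wider than the SD between them. The narrowest step against that spread was FCC to FZ, 0.45 with an SD of 0.36, and it turns to FZ above FCC under the shift by hybridization controls. The step from PZ to MZ, 0.44 as deposited, shrinks to −0.02 under that shift. The largest step was the last, 1.43 ± 0.25 (SD, 2 probe sets) from MZ to HZ, where 63 of 14217 genes had a larger difference in this direction. Against FCC, Acan was lower in HZ by 2.73 ± 0.03 (SD, 2 probe sets) and in MZ by 1.30, with a difference of −0.86 in PZ and −0.45 in FZ. Under the shift by hybridization controls the difference is −2.21 in HZ, a move far larger than that SD, and −0.78 in MZ.

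Hapln1, the link protein, had the widest range of the 6 genes, 4.86, and 61 of all genes had a wider one. The probe sets gave 2.64, 2.98 and 1.92 in FCC, −0.53, −0.68 and −0.86 in FZ, and 1.32, 1.58 and 0.34 in PZ. In MZ they lay at 0.00, the median array of all 3, and in HZ at −2.34, −2.42 and −2.28. As deposited, all 3 gave 1 order, FCC above PZ, MZ, FZ and HZ, so that unlike Acan the gene was lower in FZ than in PZ. The step from PZ to MZ, 1.08 in the mean, is 0.62 under the shift by hybridization controls, within the SD of 0.65 between probe sets. FZ minus PZ goes from −1.77 to −1.18 under it. Against FCC the difference was −3.20 ± 0.45 (SD, 3 probe sets) in FZ and −1.44 ± 0.13 in PZ, with −2.51 ± 0.54 in MZ and −4.86 ± 0.61 in HZ. Within MCC, PZ exceeded HZ by 3.42 and MZ exceeded HZ by 2.35. The call for MZ against FCC lies near the threshold and is −1.99 under the shift by hybridization controls.

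Comp, the cartilage oligomeric matrix protein, was low at both ends of the MCC. By its single probe set it was 1.60 in FCC and −2.33 in FZ, with 0.00 in PZ, 0.29 in MZ and −2.63 in HZ. PZ and MZ differed by 0.29 where genes with several probe sets had a median SD of 0.31, though PZ is lower than MZ by 0.75 under the shift by hybridization controls, and FZ and HZ differed by 0.31 where that SD was 0.17. The outer and middle zones were far apart: FZ was lower than PZ by 2.33 and than MZ by 2.62, and HZ was lower than PZ by 2.63 and than MZ by 2.92. For MZ against HZ, 9 of 14217 genes had a larger difference. Relative to FCC, Comp was −3.93 in FZ and −1.60 in PZ, with −1.31 in MZ and −4.24 in HZ. The difference between FZ and PZ becomes −1.74 under that shift. Since Comp has 1 probe set, none of its values has a second measure on these arrays.

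Hyaline cartilage markers were on average highest in FCC, like Hapln1 and Comp, but lowest in FZ, where Acan, Hapln1 and Comp were lowest in HZ. The mean over 15 of them was 2.68 in FCC and −1.48 in FZ, with 0.02 in PZ, 0.46 in MZ and −0.81 in HZ, and Col9a1, a chain of the collagen that decorates type II fibrils, was 2.13, −4.53, 0.00, 0.66 and −1.33 in the same arrays. Of the 15 markers 11 were lowest in FZ, where Acan was at 0.41. The other 4 were not, and Ucma, a cartilage matrix protein, had the order of Acan, with 1.67, 0.32, 0.00, −0.36 and −3.90. Chad, chondroadherin, was 0.64 in FZ. Their part in the results for Hapln1 and Comp was not tested. Relative to Acan, the log2 ratio of Comp was lower in FZ than in PZ by 2.74, and that of Hapln1 by 2.18.

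Vcan, versican, was highest in FZ by all 5 probe sets and lowest in FCC by 4 of them. They ranged from −1.64 to −0.18 in FCC, with a median of −1.04, from 0.12 to 1.13 in FZ with a median of 0.80, and from −1.11 to 0.91 in PZ with a median of −0.31. In MZ they lay between 0.00 and 0.34 and in HZ between −0.14 and 0.02. PZ is the array on which the probe sets part, since 1 of them gave 0.91 there, close to its 1.13 in FZ, and another −1.11, nearer to its −1.64 in FCC. The difference of the mean from FCC was 1.61 ± 0.81 (SD, 5 probe sets) in FZ and 0.68 ± 0.61 in PZ, with 1.03 ± 0.67 in MZ and 0.89 ± 0.56 in HZ. None of these was called. For FZ the value is 2.26 under the shift by hybridization controls, and 2.53 by the probe set with the widest range, but 1.04 without the probe sets that can match several transcripts, when MZ is 0.42 and HZ 0.36. The order of MZ, HZ and PZ below FZ is not settled, since HZ exceeded PZ by 0.22 with an SD of 0.78, and PZ lies above MZ by 0.30 without those probe sets. The probe set that was lowest in PZ varied least, with its 5 values between −0.31 and 0.12. Versican has several splice forms, and which of them each probe set detects was not examined.

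Relative to Acan, Vcan was higher in each MCC zone than in FCC. The log2 ratio of Vcan to Acan, as a change from FCC, was 2.06 in FZ and 1.54 in PZ, with 2.33 in MZ and 3.62 in HZ. A ratio within an array is unchanged when the whole array is shifted by a constant. It can still depend on the quantile normalization, which is not such a shift. In FZ the change came from a higher Vcan (1.61) beside an Acan that differed by −0.45, and in HZ from a lower Acan (−2.73) beside a Vcan that differed by 0.89. It shows unequal change of the transcripts and not which of them was the more abundant.

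Has2, the hyaluronan synthase with a probe set under its name, was 1.08 in FCC and 0.25 in FZ, with 0.00 in PZ, −0.50 in MZ and −0.51 in HZ. FCC was the highest array, FZ and PZ differed by 0.25 where the median SD between probe sets over genes was 0.30, and MZ and HZ differed by 0.01. Each zone lay below FCC, by 0.83 in FZ and 1.08 in PZ, with 1.58 in MZ and 1.59 in HZ, and none was called. Under the shift by hybridization controls the difference is −0.18 in FZ, within the median SD of 0.26, −1.02 in PZ and −1.06 in MZ and HZ alike.

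Cd44, the hyaluronan receptor, ran the other way. Its 2 probe sets gave −1.90 and −1.46 in FCC, and 0.94 and 0.47 in FZ. They lay at 0.53 and −0.12 in PZ, at −0.11 and 0.00 in MZ, and at 0.00 and 0.09 in HZ. FCC lay below all 4 zones by both, FZ was the highest array, and PZ, MZ and HZ were within 0.26 of each other in the mean. The difference from FCC was 2.38 ± 0.64 (SD, 2 probe sets) in FZ and 1.88 ± 0.77 in PZ, with 1.62 ± 0.23 in MZ and 1.72 ± 0.25 in HZ. Under the shift by hybridization controls it is 2.14 in MZ and 2.25 in HZ, and PZ is 2.43 by the probe set with the wider range. Relative to Has2, Cd44 was higher than in FCC by 3.21 in FZ and 2.97 in PZ, with 3.20 in MZ and 3.31 in HZ.

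CD44 is abundant on leukocytes as well as on connective tissue cells, so markers of other cells are given beside it. The mean over 12 leukocyte genes was −0.99 in FCC and −0.16 in FZ, with −0.75 in PZ, 0.60 in MZ and 0.91 in HZ, and their sum ran from −11.9 in FCC to 10.9 in HZ. These genes were lowest in FCC in 7 of 12 cases and highest in HZ in 9 of 12. Cd44 was highest in FZ, where 10 of these 12 genes lay above FCC and 2 below. Their median difference there was 1.05, and that of all genes 0.02. Ptprc, the leukocyte phosphatase CD45, was 0.00 in FZ and −0.70 in FCC. The 8 cycling cell genes averaged −1.22 in FCC and 0.17 in FZ, with −0.29 in PZ, 0.02 in MZ and 0.26 in HZ. The 7 erythroid genes were at 0.00 in FCC, where Cd44 was lowest, with a mean of 1.61 in HZ. Their part in the values of Cd44 was not tested.

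**Figure D2:**
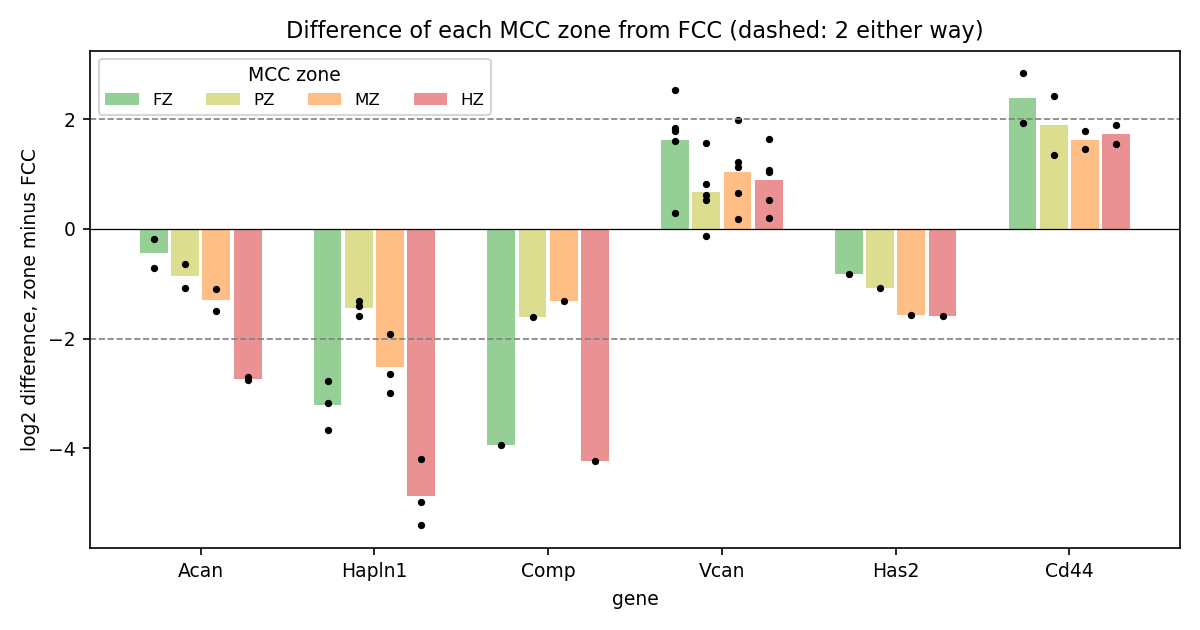
Log2 difference of each MCC zone from FCC (vertical axis) for the 6 genes (horizontal axis). Bars are the mean of a gene's probe sets, dots are single probe sets, and dashed lines lie at 2 either way. Acan, Hapln1, Comp and Has2 lie below 0 in all 4 zones (Acan in FZ at 0.20 when arrays are shifted by hybridization controls) and Vcan and Cd44 above it, with the lowest bar at −4.86 for Hapln1 in HZ.

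Counted over the 6 genes, 3 were called in FZ against FCC (Hapln1 and Comp lower, Cd44 higher), where 2.33% of all genes were called in either direction. In PZ none of the 6 was called, against 2.36% of genes, and the differences ran from −1.60 for Comp to 1.88 for Cd44. Only Hapln1 was called in MZ (2.6% of genes), and Acan, Hapln1 and Comp were called in HZ, all lower (3.69% of genes). The 4 comparisons share the FCC array, so they are not independent of each other. Over all genes, 119 were called higher and 212 lower in FZ than in FCC, 158 and 212 in MZ, and 215 and 310 in HZ. Under the shift by hybridization controls these become 410 and 126, 413 and 139, and 526 and 203.

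Between MCC zones, Comp was the 1 gene called for FZ against PZ and for FZ against MZ, lower in FZ both times, where 0.724% and 1.1% of genes were called. For FZ against HZ it was Acan, higher in FZ by 2.28 ± 0.33 (SD, 2 probe sets), with 1.4% of genes called. No member was called for PZ against MZ, where 1.26% of genes were, and the largest difference was 1.08 for Hapln1. Hapln1 and Comp were called higher in PZ than in HZ (1.88% of genes) and higher in MZ than in HZ, the comparison with the fewest calls, 0.239% of genes, all of them higher in MZ. For the mean of the superficial zones, FZ and PZ, against that of the deep zones, MZ and HZ, none of the 6 was called and 0.928% of genes were, with Acan at 1.36, Hapln1 at 1.37 and Comp at 0.01. Over all 5 arrays, the range was at least 2 for Acan, Hapln1, Comp and Cd44, as it was for 6.68% of genes. The split of all calls into higher and lower is 82 and 21 for FZ against PZ, 51 and 128 for PZ against MZ, 115 and 152 for PZ against HZ, and 93 and 39 for superficial against deep zones. Under the shift it is 320 and 13, 20 and 352, 82 and 434, and 81 and 57.

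**Figure D3:**
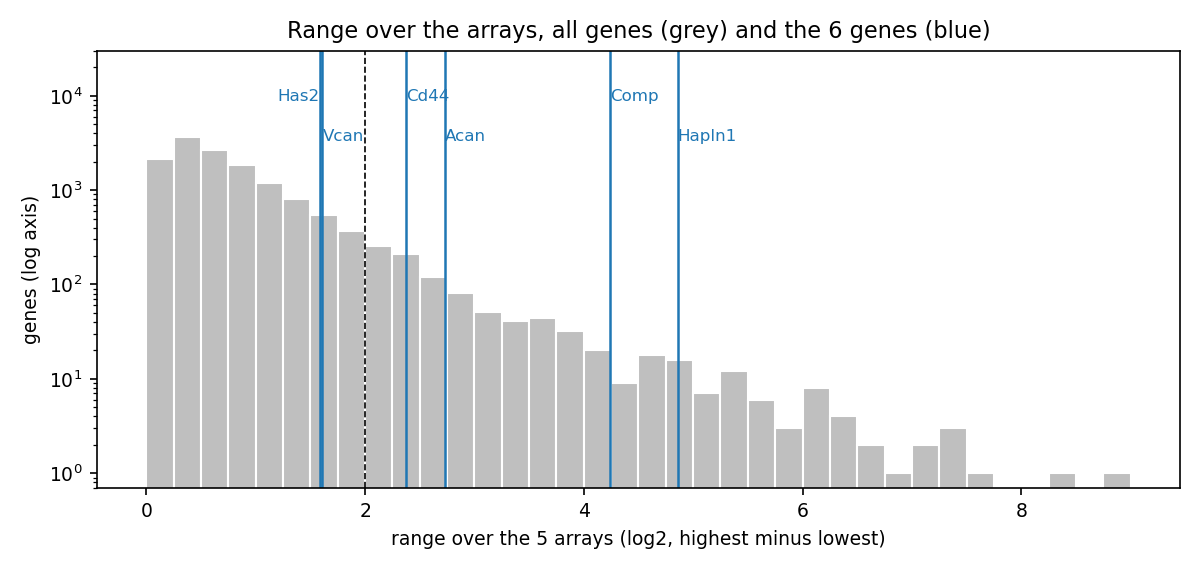
Number of genes (vertical log axis) by the range of their values over the 5 arrays (horizontal axis, log2, highest minus lowest array). Blue lines mark the 6 genes and the dashed line a range of 2. Has2 and Vcan lie at 1.59 and 1.61, under the dashed line, and Comp and Hapln1 at 4.24 and 4.86.

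The other genes of the network were read from 7 lists by role, of 84 genes with 71 under their name on the array. A range of at least 2 was met by 17 of the 71 and by 6.68% of all genes. The lists were chosen with earlier results of these data known, so their counts are descriptions. Against FCC, the number called in either direction was highest for FZ, at 9, followed by HZ at 8, MZ at 4 and PZ at 3, where 2.33%, 3.69%, 2.6% and 2.36% of all genes were called.

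Relatives and partners in the matrix had 8 of 14 genes at a range of 2 or more, the highest count of the 7 lists. In FZ against FCC, Tnc was called higher and Col2a1, Col9a1, Col9a2 and Col9a3 lower, with a median of −0.17 over the list that turns to 0.48 under the shift by hybridization controls. Under it Col2a1 is no longer called (−1.94) and Fbln2, fibulin 2, is (2.11). In HZ against FCC, 5 of the 14 were called, all lower, and the median of the 14 was −1.68 where that of all genes was 0.00. They were Matn2, a matrilin (−5.04), Thbs3, a thrombospondin like COMP (−2.95), and the collagen IX chains Col9a1 (−3.46), Col9a2 (−2.45) and Col9a3 (−2.29). Of these 5, Matn2, Thbs3 and Col9a1 stay called under that shift, with a median of −1.15 over the list. Some matrilins and some thrombospondins are adaptor proteins that link collagen fibrils with aggrecan. Matn2 was 0.74 in FCC and 1.15 in FZ, with 0.00 in PZ, −1.68 in MZ and −4.30 in HZ, so that, like Acan, it was lowest in HZ and, unlike Comp and Hapln1, it was not low in FZ. Thbs3 was at 0.00, 0.80, 0.73, −1.03 and −2.95 in the same order. Thbs2, another thrombospondin, was 0.00, 0.83, 0.17, −1.12 and −1.81. Tnc, tenascin C, which binds lecticans, was −1.28 in FCC and 1.22 in FZ, the same extremes as Vcan. For Col2a1, whose mean over 3 probe sets was 0.09 in FCC, they parted there at −2.12, 1.55 and 0.85. In FZ they gave −1.58, −2.08 and −3.83, so that FZ lay above FCC by the first and below it by the others.

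Among the proteases, Adamts4, an aggrecanase, was −1.67 in FCC and 1.24 in FZ, with 0.32 in PZ, 0.00 in MZ and −0.40 in HZ, which placed it 2.91 higher in FZ than in FCC. Adamts5, the other main aggrecanase, was −0.87 and −1.32 in FCC by its 2 probe sets, between −0.20 and 0.35 elsewhere. Adamts7, which cleaves COMP, was −1.84 in FCC and 0.46 in HZ, a difference of 2.30, and lay 2.49 higher in MZ than in FCC. Timp3, the tissue inhibitor of these enzymes, was 0.66 in FCC and between −0.33 and 0.04 in the zones. Its 4 probe sets parted in FCC, at 0.00, 0.48, 0.77 and 1.37. Its difference of −0.62 in FZ from FCC turns to 0.03 under the shift by hybridization controls, with −0.18 in MZ and HZ. In PZ the difference is −0.99 as deposited and −0.92 under the shift. Adamts15, a further protease of this list, differed from FCC by 0.82 in FZ but by −1.62 in MZ and −0.95 in HZ. Under the shift its values for MZ and HZ are −1.10 and −0.43. FZ exceeded MZ by 2.44 for this gene, a called difference. Over the list, 7 genes lay above FCC and 2 below for MZ, against 6 and 3 for HZ. Of the 9 genes, 1 was called higher in FZ and 1 in HZ, with 0 lower in either, where 2.33% and 3.69% of all genes were called, and the medians against FCC were 0.82 and 0.90. Under the shift by hybridization controls, 3 are called higher in FZ (Adamts4, Adamts7 and Adamts12) and the medians are 1.47 and 1.42. Of all 14217 genes, 410 are then called higher and 126 lower in FZ. The shift raises all genes alike, to a median of 0.66 in FZ and 0.52 in HZ.

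Enzymes that make or break down hyaluronan, and the proteins that bind it, had narrower ranges. None of 6 genes of synthesis and breakdown, Has2 apart, had a range of 2, the widest being Hyal3, a hyaluronidase family member, at 1.08, with medians of 0.03 for FZ and 0.01 for HZ against FCC, and of 0.68 and 0.53 under the shift by hybridization controls, which moves the median of all genes by a like amount. None of 10 receptors and binding proteins had one either, with medians of −0.16 for FZ and −0.03 for HZ against FCC that turn to 0.49 and 0.49 under the shift. Lyve1, the hyaluronan receptor of lymphatic endothelium, was 1.12 in FZ and between −0.40 and 0.13 elsewhere. Tnfaip6, which transfers heavy chains onto hyaluronan, was 0.90 in FZ and from −0.13 to 0.00 elsewhere. Its 2 probe sets parted in FZ, at 0.16 and 1.65. Stab1, a scavenger receptor of macrophages and sinus endothelium, was −0.72 in FCC and 1.14 in HZ.

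Ligands and cytoplasmic partners of CD44 were all above FCC in FZ and in HZ, with medians of 0.57 and 1.47 over 8 genes. The smallest differences were those of Nf2, 0.04 and 0.03, and in PZ 3 of the 8 lay below FCC. Ezr, ezrin, which ties CD44 to actin, was called in FZ (2.27), as were 2.33% of all genes. Mmp9, a protease that docks on CD44, was called in MZ (2.30) and in HZ (2.42), with 2.6% and 3.69% of all genes. Under the shift by hybridization controls, 2 of the 8 are called in FZ and 4 in HZ, all higher. Of all 14217 genes, 410 are then called higher and 126 lower in FZ, and 526 and 203 in HZ. That shift moves the median of all genes to 0.66 in FZ and 0.52 in HZ. Spp1, osteopontin, was −0.57 in FCC and 0.00 in FZ, with −2.17 in PZ, 0.97 in MZ and 1.13 in HZ. Srgn, serglycin, a proteoglycan of blood cells, followed it at −0.16, 0.00, −1.58, 1.08 and 1.25. Of the 12 leukocyte markers 9 were highest in HZ and 2 in MZ, and their part in these values was not tested.

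**Figure D4:**
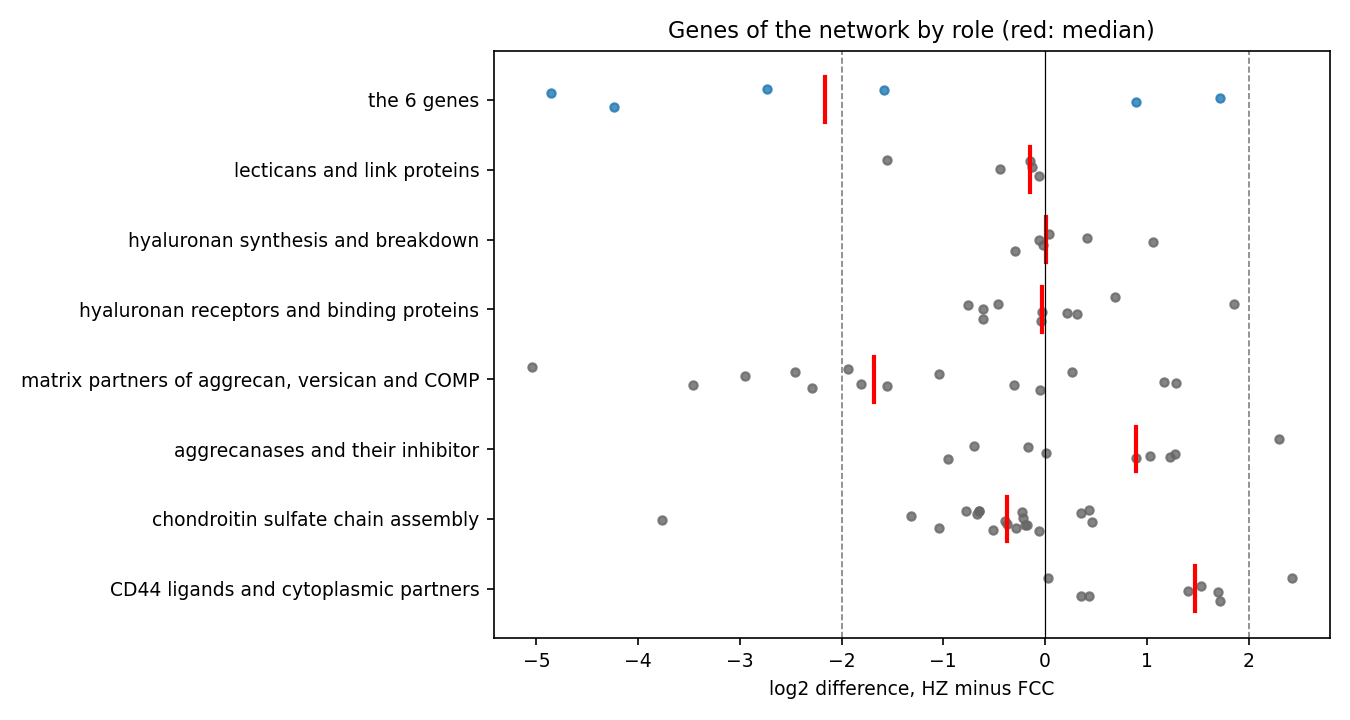
Log2 difference between HZ and FCC (horizontal axis) for the 6 genes (blue) and for the 7 lists by role (grey), 1 dot per gene, with red bars at the medians and dashed lines at 2 either way. The median is −1.68 for the matrix partners and 1.47 for the CD44 partners, with 1 array per group.

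Lectican genes lie beside link protein genes in the RefSeq annotation of GRCr8, with 0 genes between them in each of the 4 pairs: Acan with Hapln3, Vcan with Hapln1, Bcan with Hapln2 and Ncan with Hapln4. Vcan was lowest in FCC, where Hapln1 was highest, and from FCC to HZ the log2 ratio of Vcan to Hapln1 changed by 5.75. Acan and Hapln3 were both highest in FCC, Hapln3 at 1.56 (Acan highest in FZ under the shift by hybridization controls), and parted in HZ, where Hapln3 was at 0.00 and Acan at −1.87. Hapln3 was −0.74 in FZ and −0.74 in PZ, which differs from FCC by −2.29 and −2.30, and by −1.65 in FZ under the shift. The 5 lecticans and link proteins beyond the 6 genes had a median of −0.43 in FZ and −0.15 in HZ against FCC, which turn to 0.22 and 0.38 under the shift. Bcan and Ncan, lecticans of the nervous system, had ranges of 0.47 and 0.44, and Hapln2 and Hapln4, link proteins of the same tissue, 0.13 and 0.43.

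**Figure D5:**
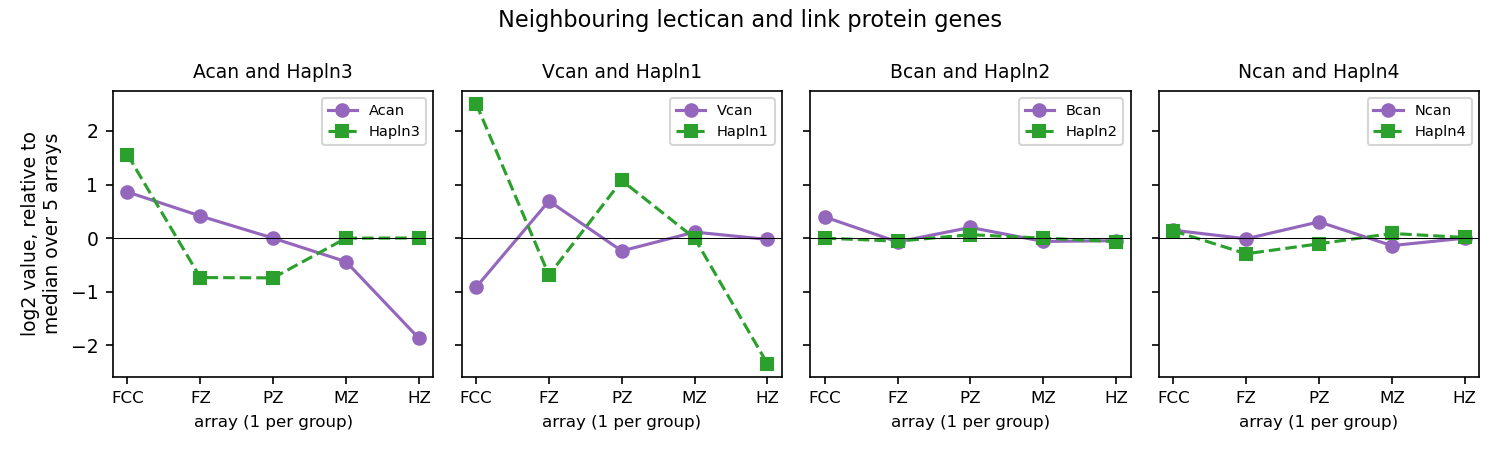
Log2 values relative to the median over the 5 arrays (vertical axis) for 4 pairs of neighbouring genes, lecticans as purple circles and link proteins as green squares, on each array (horizontal axis, 1 per group). Vcan and Hapln1 cross, Acan and Hapln3 are both high in FCC (Acan highest in FZ when arrays are shifted by hybridization controls), and both other pairs stay within 0.40 of 0.

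The genes most like each member over the 5 arrays were taken by the root mean square distance of centred values, among genes with a range of at least 2. Vcan and Has2, with ranges of 1.61 and 1.59, lie below that limit, so genes with ranges like theirs were left out. With 5 points from the same arrays this likeness is a description. For Acan they were Slc16a3, a lactate transporter (distance 0.22), Plaat1 (0.23) and Rab26 (0.23), and for Hapln1 they were Chrdl2, a chordin-like BMP binder (0.22), Nat8b (0.57) and Fam227a (0.60). Comp was nearest to Art3 (0.29), Lims2 (0.34) and Moxd1 (0.37). Vcan was nearest to Col5a1, a chain of fibrillar collagen V (0.17), Ppfibp2 (0.17) and Cdkn3 (0.19), Has2 to Thsd4 (0.19), Man1a1 (0.20) and the proteoglycan Sdc4 (0.21), and Cd44 to Fabp5, a fatty acid binder (0.10), Myl9, a myosin light chain (0.13) and the actin binder Dbn1 (0.16). Among the 6 themselves the closest were Vcan and Cd44 (0.39) and the farthest Comp and Cd44 (2.29).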

How the data were processed

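Expression was measured with Affymetrix rat genome arrays, 1 for each of 5 groups. To make the deposited log2 values, the authors corrected background under MAS5 and normalized by RMA with quantiles, relative to a baseline at the probe set's median. That median was 0 for all 31099 probe sets. The authors' filter on low intensities needs levels and was not applied. The labels give 30 pooled sections of 7 µm per group, whereas the methods of the study state a larger pool for FZ. The build behind the probe annotation was not given in the sources used here.

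After 57 control probe sets were set aside, 20826 of 31042 carried 1 symbol, 436 several, and 9780 were not listed. Values were differenced in pandas 2.3.3 and numpy 2.4.6 under Python 3.11.15, and figures were drawn by matplotlib 3.10.9. Functions were tested on simulated data. Members and lists were chosen with earlier results of these data known. Named genes were the members, list genes past a difference of 2 or at the extremes of a list, the 3 nearest patterns of each member, and markers. Adamts5, Tnfaip6, Csgalnact2, Papss1 and the neighbouring lectican and link genes were named after their values were seen. Not analysed here, because the platform annotation used gives them no probe set of their own (probe sets it does not list may measure them), are Has1, Has3, Hyal1, Layn, Itih5, Ptx3, Matn3, Matn4, Thbs1, Adamts20, Chst13, Chst15 and Slc35d1. Alternatives were centring on the array median, the shift by 18 hybridization controls, the probe set with the widest range, a threshold of 1, and leaving out probe sets that can match several transcripts. Osteoclast and endothelial markers averaged −0.89 and −0.35 in FCC and 0.67 and 0.55 in HZ, and markers of fibrous tissue and hypertrophy 0.03 and −0.17 in FCC and −1.00 and 0.55 in HZ.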

Additional observations from a re-analysis of the deposited data

How the results depend on the processing

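At a threshold of 1, calls over the 6 genes number 19 against FCC and 12 between MCC zones, where 7 and 7 were counted at 2, and 36 genes of the lists have such a range, against 17. Of all genes, 9.9% to 14.1% are called against FCC at 1, 1.11% to 11.8% between MCC zones and 6.03% for superficial against deep zones, and 27.2% have a range of 1. By comparison the counts at 1 are 4 for PZ, 6 for MZ and 5 for HZ against FCC, 2 for FZ against PZ, 2 for FZ against HZ, 1 for PZ against MZ and 2 for superficial against deep zones. With the probe set of widest range, 1 gene is called for PZ against FCC and 3 for FZ against PZ. With the shift by hybridization controls, 0 are called for FZ against PZ. Of 66 single differences, 36 moved by more than the median SD between probe sets under that shift. The probe set of widest range moved 25, leaving out probe sets that can match several transcripts moved 9, and centring on the array median 0. Centring could move none, since the median of each array was already 0. Leaving out those probe sets could change only Acan and Vcan. The probe set of widest range could not change Comp or Has2, which have 1 each. No called value changed sign under these 4 alternatives. No paired analysis was possible because each group has 1 array, and for the same reason no array could be left out of a group. Precision is limited by the number of arrays.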

Other observations

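The enzymes that build the chondroitin sulfate chains of aggrecan and versican had 1 of 19 genes at a range of 2 or more, near the share of all genes, 6.68%. That gene was Csgalnact1, which starts the chain on its linker. It was 2.80 in FCC and −1.45 in FZ, with 0.19 in PZ, 0.00 in MZ and −1.19 in HZ by the first probe set. The second gave 3.55, −0.26, −0.04, 1.58 and 0.00, so both were highest in FCC and lowest in FZ. Its mean differed from FCC by −4.03 in FZ, by −3.10 in PZ, by −2.39 in MZ and by −3.77 in HZ. With the arrays shifted by hybridization controls these are −3.38, −3.04, −1.86 and −3.24, so that MZ is no longer called. Csgalnact2, its paralog, was 1.19 in FCC and 0.82 in FZ, and between −0.26 and 0.00 in the other zones. Over the list, 16 of 19 genes lay below FCC in HZ, with a median of −0.37, but with the arrays shifted by hybridization controls 12 of 19 lie above FCC and the median is 0.15. Papss1, which makes the sulfate donor, was 0.98 in FCC and −1.02 in PZ, and Slc26a2, the sulfate transporter, was 0.83 in PZ and between −0.23 and 0.00 elsewhere.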
